A study of Homo sapiens with 6 samples.

Results

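The genes described here are 4 secreted cytokines of the interleukin-6 (IL-6) family (IL6, IL11, LIF and CLCF1), 4 receptor chains (IL6R, IL6ST, LIFR and OSMR), the transcription factor STAT3 and the feedback inhibitor SOCS3. They were chosen by symbol from the 30267 genes of the deposited table, and all 10 were listed in it. The RNA came from SW839, an established renal cell carcinoma (RCC) cell line grown in medium with fetal bovine serum. Of the 6 libraries, 3 were labelled shRNF25, from cells carrying a short hairpin RNA against RNF25, an E3 ubiquitin ligase. The other 3 were labelled shControl, from cells with the pLKO vector. Both groups were also exposed to the same procedure, since stable lines were made by lentiviral infection and puromycin selection according to the study's methods. A limit of the model is that the shRNF25 libraries share a single hairpin name, so an effect of that hairpin on other transcripts cannot be told apart from loss of RNF25. The treatment text is the same for all 6 samples and names the shRNF25 plasmid for the controls too, so the groups rest on titles, genotypes and library names. The labels call the libraries of a group biological triplicates without saying which cultures they came from, so p-values measure only the spread between these libraries.

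Cytokines of this family act through receptor complexes that share the signal-transducing chain gp130, the product of IL6ST. IL-6 binds the receptor chain encoded by IL6R, interleukin-11 uses its own receptor chain, LIF brings gp130 together with the LIF receptor, and oncostatin M can pair gp130 with the product of OSMR. The assembled receptors activate JAK kinases, which phosphorylate STAT3, and STAT3 then moves to the nucleus and switches on target genes that include SOCS3, whose protein shuts the receptor down again. In many epithelial tumors IL6 itself is transcribed under NF-κB, which is the pathway the study examined after RNF25 knockdown.

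Each library held between 18647460 and 19943154 reads counted on genes, and values are given as normalized counts, that is, reads divided by 1 scaling factor per library. RNF25, the targeted gene, was at 694.2, 533.5 and 536.4 in shControl and at 214.1, 245.7 and 265.0 in shRNF25, so the groups did not overlap. Its log2 fold change was -1.27 (standard error 0.150, limma adjusted p = 0.000585). The shControl libraries differed more among themselves than the shRNF25 libraries did. shControl replicate 1 had correlations across genes of 0.976 and 0.981 with the other controls, which correlated with each other at 0.987, and the shRNF25 libraries correlated with each other at 0.994. Where leaving out shControl replicate 1 changes a call, the result is given both ways. The labels name no batch, and the control library names differ in form from each other and from the shRNF25 names, and the knockdown cannot be told apart from any batch that splits the libraries the same way. Of 7 renal and epithelial markers 5 were listed, and KRT8, KRT18, EPCAM and PAX8 lay at 10 or more in every library. The other listed marker, CA9, was low, at 7.74, 12.3 and 50.7 in shControl and 8.20, 1.85 and 4.77 in shRNF25, and was not tested. PAX2 and CDH16 were not listed. Of 7 leukocyte markers 6 were listed and 1, ITGAM, lay at 10 or more in every library. Of these markers CD3E and CD68 had at most 3 reads in every library, and of the fibroblast markers COL1A2 and DCN did. The fibroblast markers summed to 1108 to 1293 in shControl and to 876.4 to 1024 in shRNF25, most of it COL1A1 (means 1177 and 913.6). The endothelial markers summed to 496.3 to 698.3 and to 495.0 to 646.9, most of it PECAM1 (means 400.3 and 451.8). Within the endothelial list CDH5 was lower, at 73.0, 102.6 and 198.6 in shControl and 3.64, 8.31 and 5.72 in shRNF25 (log2 fold change -4.12, limma adjusted p = 0.000213). CDH5 passed the filter on low values, given below, only through shControl, so its call has little weight. KDR was higher, at 26.5, 29.8 and 17.3 against 88.4, 81.3 and 83.9 (log2 fold change 1.78, limma adjusted p = 0.00116). The part of such cells in the results was not tested.

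The promoters of the 3 genes that fell past the criteria given below are shown because NF-κB is the pathway under study and IL6 fell the most. They are the 250 bases before the RefSeq start site in GRCh38.p14, in which 8 of the 10 genes matched an entry. Capitals mark matches, on either strand, to GGG and TTTCC with any 2 bases between them (NF-κB), TTCNNNGAA (STAT), TGANTCA (AP-1) or TTGCNNAA (C/EBP).
IL6 promoter, chr7:22726950-22727199 (plus strand): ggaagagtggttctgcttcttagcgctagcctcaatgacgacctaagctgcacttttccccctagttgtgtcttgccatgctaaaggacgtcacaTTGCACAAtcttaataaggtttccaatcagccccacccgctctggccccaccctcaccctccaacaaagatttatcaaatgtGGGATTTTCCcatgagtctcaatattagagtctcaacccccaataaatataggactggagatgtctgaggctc
IL11 promoter, chr19:55370464-55370713 (minus strand): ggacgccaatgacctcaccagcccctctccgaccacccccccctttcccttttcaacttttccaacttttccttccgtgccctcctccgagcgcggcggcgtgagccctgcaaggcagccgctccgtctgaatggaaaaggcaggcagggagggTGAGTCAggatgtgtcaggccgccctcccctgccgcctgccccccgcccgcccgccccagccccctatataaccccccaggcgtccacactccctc
OSMR promoter, chr5:38845762-38846011 (plus strand): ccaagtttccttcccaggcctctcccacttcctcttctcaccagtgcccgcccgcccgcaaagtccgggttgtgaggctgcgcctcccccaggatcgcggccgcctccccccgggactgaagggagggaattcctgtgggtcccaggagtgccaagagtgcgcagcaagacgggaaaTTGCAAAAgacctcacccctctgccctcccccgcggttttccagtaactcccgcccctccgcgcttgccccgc
IL6 carried the NF-κB letters GGGATTTTCC at -73 to -64 and the C/EBP letters TTGCACAA at -155 to -148, counted from the start site. IL11 carried the AP-1 letters TGAGTCA at -96 to -90, and OSMR the C/EBP letters TTGCAAAA at -73 to -66. LIFR, which was not called, has 3 start sites in the RefSeq table, and over these it held the same C/EBP letters and 2 matches to the STAT letters. IL6R, IL6ST and STAT3 held none of the letters searched. For SOCS3, on the minus strand, the windows searched were 78360926 to 78361175 and 78359668 to 78359917, and neither held any of the letters. The annotation used for gene positions starts SOCS3 at 78360077, which lies between these windows. The bases directly before that start were not searched, so the absence of matches for SOCS3 holds for the windows given only. Among 35116 RefSeq promoters of the same length, 1.73% held the NF-κB letters, 6.57% the STAT letters, 6.57% the AP-1 letters and 9.05% the C/EBP letters. None of these matches overlapped another, and a match is a stretch of letters, not a measured binding site.

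The design asks which of the cytokines, receptors and signaling genes differed between shRNF25 and shControl. Values were compared as log2(normalized count + 1) with limma over the 16554 genes that had at least 10 in at least 3 libraries, and 9 of the 10 genes passed this filter. The exception was STAT3, which was near 0 in every library. A gene was called lower or higher by the criteria of the study's methods, a fold change of 1.5 or more with an adjusted p under 0.05. IL6, IL11 and OSMR were lower in shRNF25, 3 of the 9 genes tested, where 7.1% of all tested genes were called lower. None of the 9 was called higher, where 8.65% of all tested genes were. With limma, 0 of them had a log2 fold change above 0 at an unadjusted p below 0.05, and edgeR and DESeq2 also called 0 higher. The median log2 fold change of the 9 genes was -0.45, beside -0.01 over all tested genes. The genes were chosen with earlier results of these data known, so these shares and medians are a description. Every shRNF25 library lay below every shControl library for IL6, IL11, OSMR and SOCS3, 4 of the 9, a separation found downward in 21.8% and upward in 20.7% of all tested genes. Without shControl replicate 1 the number called lower was 5, with LIF and SOCS3 added.

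**Figure D1:**
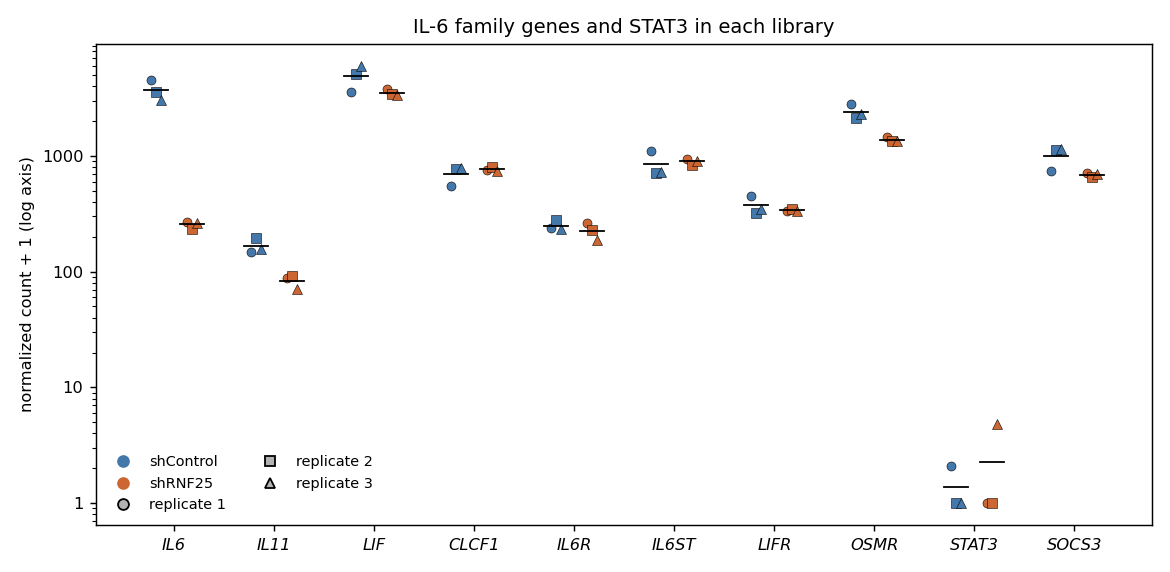
Normalized count plus 1 on a log axis for the 10 genes in each of the 6 libraries, with shControl in blue, shRNF25 in orange, a symbol shape for each replicate number and a line at the mean of each group. IL6 is set far apart between the groups, and STAT3 lies at the bottom of the axis in both.

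IL6, the cytokine that gives the family its name, showed the largest difference among these genes. The controls had 4543, 3551 and 3016 normalized counts of it, in the order of their replicate numbers, and the shRNF25 libraries had 268.8, 234.6 and 264.0. Every control lay far above every shRNF25 library. The log2 fold change was -3.83 (standard error 0.154, limma adjusted p = 1.91e-06), the 25th largest fall among all tested genes, and the shRNF25 mean was 6.91% of the control mean. The two-sided exact permutation test gave p = 0.1, and with 3 libraries a side it cannot go lower. In bulk RNA, fewer cells that express IL6 and less IL6 RNA per cell cannot be told apart. The leukocyte markers, whose cells can make IL6, summed to 33.5 to 39.8 in shControl and to 49.9 to 72.9 in shRNF25. Most of this sum was ITGAM, with means of 21.1 and 39.6, called higher in shRNF25 (log2 fold change 0.86, limma adjusted p = 0.0465). PTPRC had means of 11.4 and 9.52 and was not called. The part of such cells in the IL6 difference was not tested. IL6 lies on chromosome 7 from 22725884 to 22732002 on the plus strand (GENCODE 29, GRCh38), where exons of AC073072.1 and STEAP1B on the opposite strand cover 20.7% and 2.22% of its exon bases. Both had at most 23.2 normalized counts in any library.

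IL11, which is known for its part in bone turnover and fibrosis, was much less abundant and fell by less. It was at 145.9, 196.0 and 156.5 in shControl and at 87.5, 91.4 and 69.6 in shRNF25, without overlap. The log2 fold change was -0.99 (standard error 0.182, limma adjusted p = 0.00514). The gene lies on the minus strand of chromosome 19 from 55364389 to 55370463, with no annotated gene over it.

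LIF, the cytokine known for keeping mouse embryonic stem cells undifferentiated, had more reads than IL6 in every library but shControl replicate 1. Its counts were 3578, 5103 and 6009 in shControl and 3759, 3411 and 3352 in shRNF25, so that shControl replicate 1 fell among the shRNF25 libraries. The log2 fold change was -0.45, with a 95% interval from -0.84 to -0.06, and the limma adjusted p of 0.0988 missed the threshold. Without shControl replicate 1 it was -0.66 with an adjusted p of 0.000721. CLCF1, a partner ligand of the ciliary neurotrophic factor receptor, lay at 546.1, 765.4 and 780.3 in shControl and at 753.6, 797.9 and 740.6 in shRNF25. Its groups overlapped, the interval of the log2 fold change ran from -0.19 to 0.49, and the limma adjusted p was 0.514. RAD9A spans CLCF1 on the opposite strand without shared exon bases, and a read-through gene on the same strand shares 3.09% of its exon bases.

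The balance of the 4 ligands was therefore different in the 2 groups. Measured as normalized count per kilobase of exon, a scale on which genes of different length can be set side by side, IL6 made up 64.0%, 49.6% and 42.6% of the 4 ligands in shControl and 8.71%, 8.03% and 9.29% in shRNF25. LIF took 26.3% to 44.2% in shControl and 60.9% to 63.5% in shRNF25, and CLCF1 8.06% to 11.5% and 25.6% to 28.6%. IL11 stayed at or below 2.43% in every library. On this per-kilobase scale the mean level of IL6 went from 1790 ± 374.7 to 123.6 ± 8.96 and that of LIF from 1234 ± 309.6 to 883.7 ± 55.3 (SD, n = 3 in each group). IL6 and LIF had the highest levels of the 10 genes in shControl, with ranges that overlapped. In shRNF25, LIF was highest, followed by CLCF1, SOCS3, OSMR, IL6 and IL6ST in that order, each without overlap with the next.

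**Figure D2:**
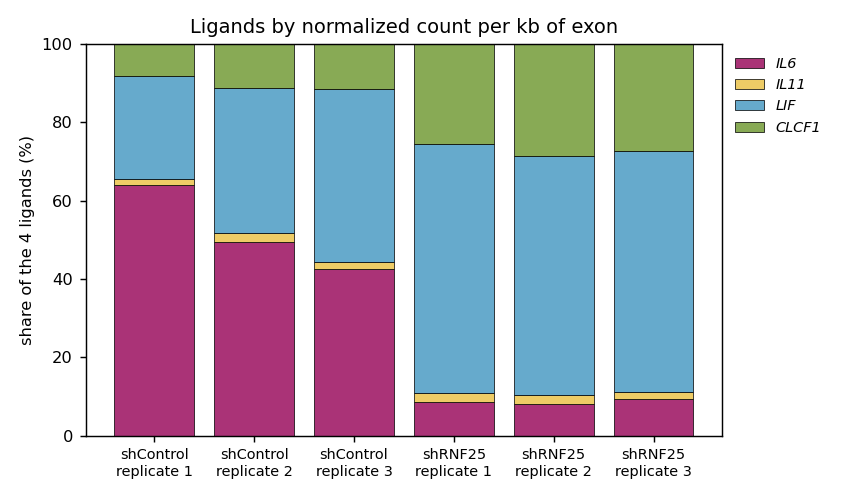
Stacked bars give the share of each of the 4 ligands in their summed normalized count per kilobase of exon, in percent, for each library. The IL6 segment is between 42.6% and 64.0% in the 3 shControl libraries and below 10% in the 3 shRNF25 libraries.

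Of the 4 receptor chains, OSMR alone was called. OSMR encodes a chain of the receptors for oncostatin M and interleukin-31, and in the receptor for oncostatin M it pairs with gp130. It lay at 2808, 2130 and 2286 in shControl and at 1452, 1355 and 1345 in shRNF25, without overlap. The log2 fold change was -0.79 (standard error 0.124, limma adjusted p = 0.00259). Its exons share 3.19% of their bases with RICTOR on the opposite strand, and RICTOR lay at 732.8 to 1261 in shControl and at 852.4 to 923.9 in shRNF25, with overlap.

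IL6ST, the gene of gp130, showed no such difference. It was at 1112, 714.1 and 722.0 in shControl and at 944.0, 836.7 and 909.3 in shRNF25, with the first control above and the other controls below all shRNF25 libraries. The log2 fold change was 0.11 with an interval from -0.28 to 0.50 (limma adjusted p = 0.695). Without shControl replicate 1 it was 0.32 (adjusted p = 0.0160), higher in shRNF25 and still under the fold change of 1.5. Its pseudogene IL6STP1 and AC015922.3 share 3.01% of the 50-base words in its transcript, so a few of its reads could belong elsewhere.

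IL6R, the ligand-binding chain for IL-6, was at 237.7, 276.0 and 233.1 in shControl and at 260.6, 228.1 and 187.8 in shRNF25. Its groups overlapped, and the interval of the log2 fold change was -0.51 to 0.21 (limma adjusted p = 0.532). LIFR, the gene of the LIF receptor, was at 452.1, 321.1 and 345.4 in shControl and at 333.5, 350.0 and 330.8 in shRNF25, an interval of -0.46 to 0.21 (limma adjusted p = 0.585). A change of at least 1.5-fold lay outside the intervals of IL6R, IL6ST, LIFR and CLCF1, while the intervals of LIF and SOCS3 reached past it downward.

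Ratios within a library do not depend on how it was scaled. The ratio of OSMR to IL6ST in normalized counts was 2.52, 2.98 and 3.17 in shControl and 1.54, 1.62 and 1.48 in shRNF25, a difference of -0.90 on the log2 scale. The two-sided exact permutation test gave p = 0.1, the smallest it can give, and 0.3 after adjustment over 3 ratios. A further planned ratio, STAT3 to SOCS3, was not computed and is not in this adjustment. STAT3 was near 0 in every library. The ratios of IL6R to IL6ST and of LIFR to IL6ST overlapped between the groups, with differences of -0.26 (exact permutation p = 0.4) and -0.23 (exact permutation p = 0.2).

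**Figure D3:**
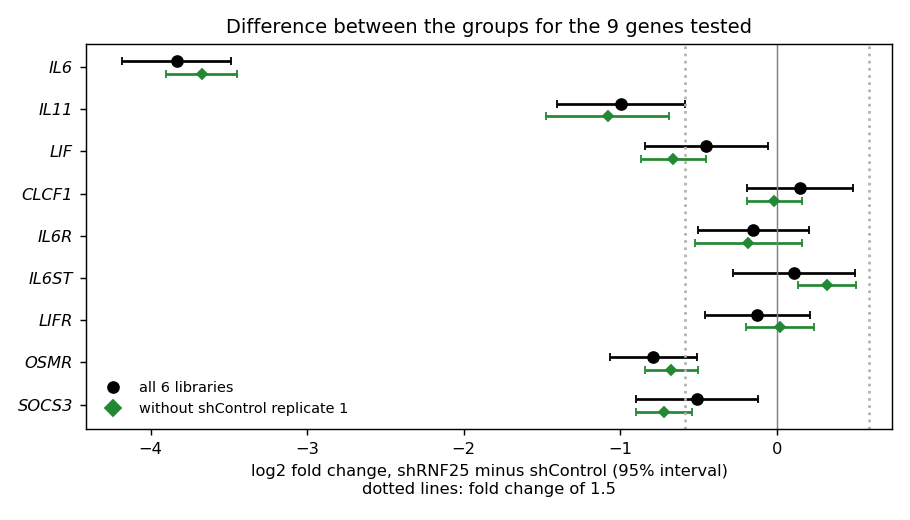
Log2 fold change, shRNF25 minus shControl, with its 95% interval from limma for the 9 genes tested, from all 6 libraries (black) and without shControl replicate 1 (green), with dotted lines at a fold change of 1.5. IL6, IL11 and OSMR are below 0 in both, IL6ST moves away from 0 and CLCF1 and LIFR cross it when that library is left out.

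STAT3, the transcription factor at the end of this pathway, was hardly counted at all. The controls had 1, 0 and 0 reads of it, and the shRNF25 libraries 0, 0 and 4. No fold change is given, because both groups lie at about the floor of 3 reads per library. On the per-kilobase scale STAT3 was at most 0.433 in any library. STAT3 lies on the minus strand of chromosome 17 from 42313324 to 42388568 (GENCODE 29, GRCh38), and no other annotated gene overlaps it there. Transcripts of other genes hold 1.34% of the 50-base words in its own.

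The neighbors of STAT3 were as low, in both groups. Around it, 13 consecutive protein-coding genes of GENCODE 29 had at most 10 reads in any library or were not listed, over 421.2 kb from 42101404 to 42522611. The 6 listed genes of this run, named after their values were seen, were DHX58, KAT2A, STAT5B, STAT3, CAVIN1 and ATP6V0A1. Together they had 52 reads in all 6 libraries, 23 of them in shRNF25 replicate 3. The 7 that were not listed include STAT5A, a relative of STAT3, and RAB5C, and no listed gene of the table was at 0 in every library. KAT2A, RAB5C and ATP6V0A1 are known as genes that most cell types express. On one side the run was bordered by ZNF385C and C17orf113, with at most 40 reads in any library, and then by NKIRAS2 with 665 to 806 reads. On the other side it ended at NAGLU, with 187 to 327 reads. The table used here may not hold every gene that was counted, and the cause of the low counts in this run was not tested.

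**Figure D4:**
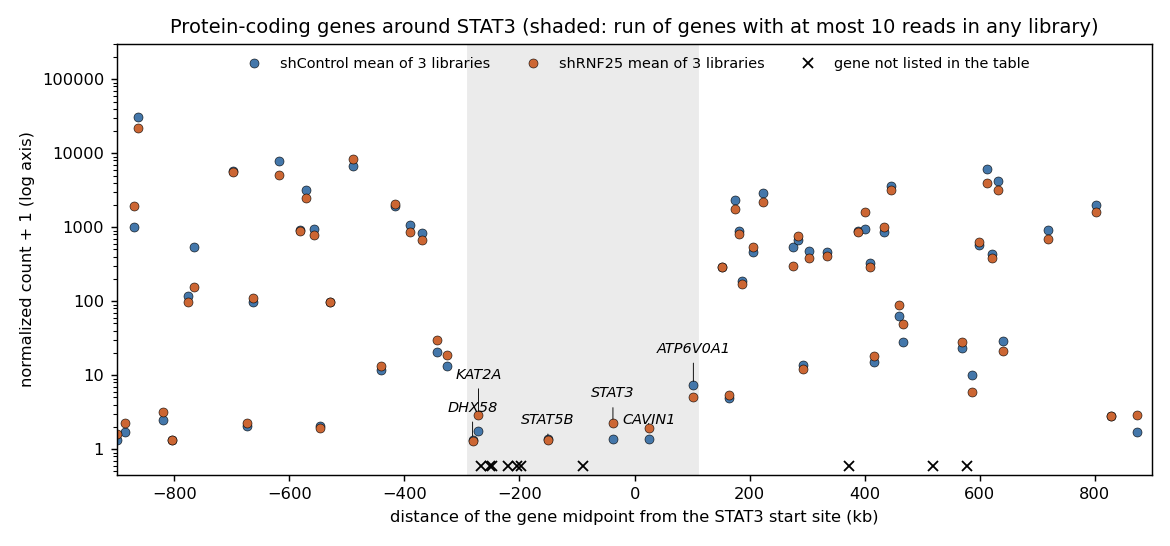
Group means of normalized count plus 1 (log axis) for protein-coding genes by the distance of their midpoint from the STAT3 start site in kb along the chromosome, with crosses for genes not listed and shading over the run of genes with at most 10 reads in any library. The listed genes in the shaded run lie near the bottom of the axis in both groups, while many genes on both sides lie far above them.

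SOCS3, the feedback inhibitor that STAT3 is known to induce, was well expressed. It was at 735.1, 1131 and 1140 in shControl and at 718.0, 651.1 and 700.6 in shRNF25, with every shRNF25 library just below the lowest control. The log2 fold change was -0.51, with an interval from -0.90 to -0.12, and the limma adjusted p of 0.0637 missed the threshold. Without shControl replicate 1 it was -0.72 (adjusted p = 0.000207), and DESeq2 gave 0.0280 over all libraries at a log2 fold change of -0.53. No annotated gene overlaps SOCS3 on chromosome 17, where it lies from 78356778 to 78360077.

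The other genes of the pathway were read from lists chosen with earlier results of these data known, so their counts and medians are a description. Over all tested genes, 15.7% were called in either direction. Among other ligands and receptors of the family, 7 of 11 genes were tested and 2 were lower. EBI3, a subunit shared by interleukin-27 and interleukin-35, went from 50.5 ± 10.9 to 15.7 ± 5.36 (SD, n = 3 in each group), with a limma adjusted p of 0.00604 and a log2 fold change of -1.66. In shRNF25 it was at 19.1, 18.5 and 9.53, so only shControl had all 3 libraries at the filter value of 10, and this call has less weight. CTF1, the gene of cardiotrophin-1, went from 56.6 ± 14.3 to 30.3 ± 9.78 (SD, n = 3), with a limma adjusted p of 0.0496 at a log2 fold change of -0.89, edgeR did not call it, and it lost its call without any 1 of the 3 shControl libraries or shRNF25 replicates 1 or 3. OSM, the ligand of the receptor with OSMR, was at 1.11 to 6.48 normalized counts in all libraries and was not tested. Of 18 kinases, phosphatases, sheddases and inhibitors of gp130 signaling, 16 were tested and 1 was called. CISH, a SOCS family gene induced by STAT5, fell by 0.59 on the log2 scale (limma adjusted p = 0.0262), just past the fold change of 1.5, and neither edgeR nor DESeq2 called it. Without shControl replicate 2 or any 1 of the shRNF25 libraries it was not called either. Without shControl replicate 1 the number called was 2, CISH and the adaptor gene SHC1. JAK1, the kinase bound to gp130, had a log2 fold change of -0.54 (limma adjusted p = 0.00681), short of the fold change asked for.

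Of 30 genes known as STAT3 targets 21 were tested, and 6 were lower and 2 were higher in shRNF25. ICAM1, an adhesion molecule that is also an NF-κB target, fell by 1.69 on the log2 scale, from 7409 ± 1857 to 2260 ± 349.6 (SD, n = 3, limma adjusted p = 0.000376). VEGFA, the angiogenic growth factor, the kinase gene PIM1 and MYC were lower too, with log2 fold changes of -1.58, -1.49 and -0.75. The repressor gene BCL6 was higher, with a log2 fold change of 0.90. The other higher gene, FGB, encodes the β chain of fibrinogen and had 3, 4 and 5 reads in shControl and 42, 32 and 31 in shRNF25. It passed the filter on low values only through shRNF25, so its call has little weight. Without shControl replicate 1 the number called was 10, with IRF1 and NNMT added. The median of the 21 genes was -0.45, beside -0.01 over all tested genes. These genes are known to have other inducers as well. STAT3 itself had almost no reads in either group, and what set the levels of these genes was not tested.

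Of 17 genes that act on IL6 transcription or on the stability of its mRNA, all were tested, 4 were lower and 1 was higher. ZC3H12A encodes Regnase-1, a nuclease that degrades IL6 mRNA. It fell by 2.01 on the log2 scale, from 2937 ± 381.9 to 738.7 ± 199.1 (SD, n = 3, limma adjusted p = 0.000175). NFKBIZ, the gene of IκBζ, a nuclear cofactor of NF-κB, had a log2 fold change of -0.79, and CEBPB, the gene of the factor C/EBPβ, one of -0.81. ZFP36L1, an RNA-binding protein of the tristetraprolin family, fell by 0.81 (limma adjusted p = 0.0293), with shControl at 6010, 2951 and 4162, and was not called without shControl replicate 1 or 3 or without any 1 of the shRNF25 libraries. FOS rose from 157.0, 181.6 and 564.5 in shControl to 1883, 2088 and 2087 in shRNF25, a log2 fold change of 2.99 (limma adjusted p = 0.00114). RELA and NFKB1, the genes of the p65 and p50 subunits, were not called. The median of the 17 genes was -0.29. The part of any of these genes in the IL6 difference was not tested.

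**Figure D5:**
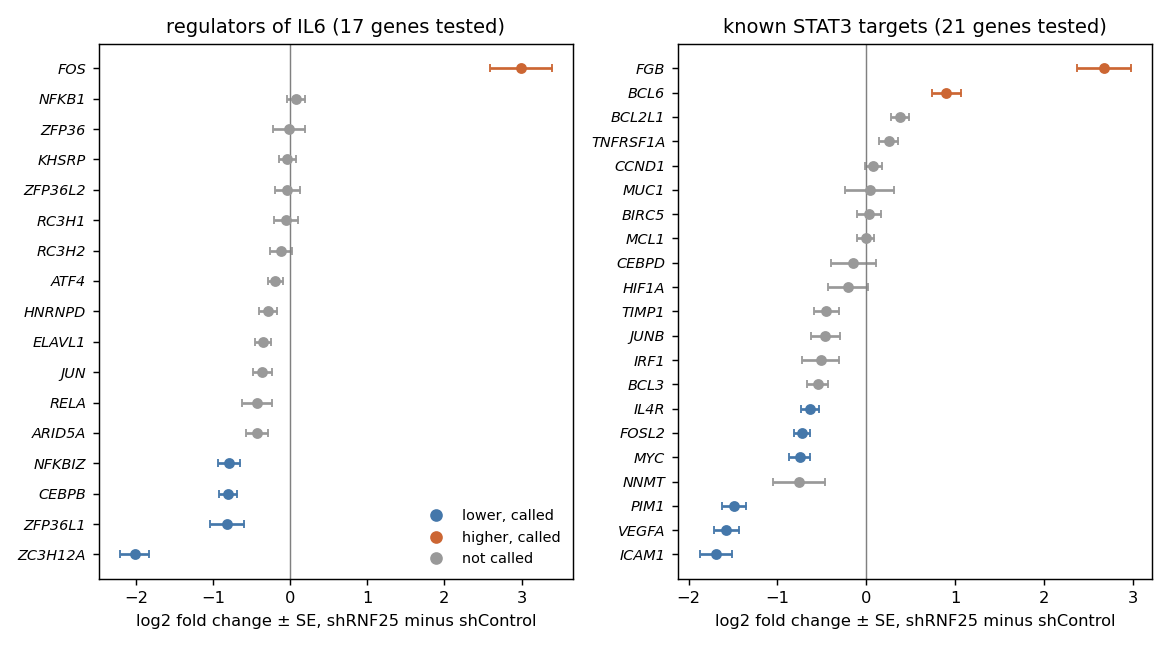
Log2 fold change with its standard error, shRNF25 minus shControl, for the 17 tested regulators of IL6 (left) and the 21 tested STAT3 targets (right), with called lower genes in blue, called higher genes in orange and others in grey. ZC3H12A has the lowest value at left at -2.01 and FOS the highest at 2.99, and the STAT3 targets run from ICAM1 at -1.69 to FGB at 2.67.

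Across the 6 libraries, the genes whose log2 values were most like those of IL6 were DSE, INHBA-AS1, IL1B, IL32 and C3, with Pearson correlations of 0.998 to 0.999. All 5 were lower in shRNF25, and 740 genes correlated with IL6 above 0.95, since the difference between the groups is shared by many genes. For IL6ST the nearest genes were ZXDB, ZNF525, CEP44, MAL2 and DYNC2H1, at 0.992 to 0.994, and 78 genes were above 0.95. These correlations rest on 6 points that share the same libraries and scaling and are given as a description.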

How the data were processed

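Total RNA depleted of ribosomal RNA was sequenced from SW839 cells as stranded libraries. The labels' processing notes name fastp, HISAT2, HTSeq and GRCh38. The annotation and the strand setting of the counting are not given in the sources used here. The authors deposited 1 table of normalized counts for 30267 genes, a signal in which the counts of each library are divided by a size factor. Each library's values were whole multiples of its smallest value, within 0.000212 reads, for 100% of values, so that whole reads were recovered.

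Deposited values were used without further scaling. Genes with at least 10 in at least 3 libraries (16554) were fitted with limma 3.58.1 (lmFit, eBayes with a trend) in R 4.3.3 on log2(normalized count + 1), with the group as the only term and Benjamini-Hochberg adjustment over all tested genes. This scale understates changes of low genes. Single genes also had a two-sided exact permutation test. The study's methods name DESeq2, and edgeR 4.0.16 and DESeq2 1.42.0 on recovered reads were alternatives. The other alternatives were pseudocounts, filters, scalings, library weights by group, the replicate number as a block and each library left out. Exon lengths and positions come from GENCODE 29, matched by symbol, and promoters from RefSeq. The members and lists were chosen with earlier results of these data known. Named genes are the members, RNF25, the called genes of each list (at most 4 per direction) and the 5 genes most like IL6 and IL6ST, and any other name was chosen after its values were seen. Scripts were tested on simulated data.

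Same-numbered libraries of the 2 groups had correlations of their deviations from the group means of -0.06, -0.09 and 0.05, so the numbers did not pair the samples.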

Additional observations from a re-analysis of the deposited data

How the results depend on the processing

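IL6, IL11, OSMR and RNF25 stayed lower, past the adjusted p of 0.05, in all 16 alternative fits. Their log2 fold changes ranged from -3.97 to -3.67 for IL6, from -1.08 to -0.87 for IL11, from -0.87 to -0.67 for OSMR and from -1.34 to -1.15 for RNF25. Leaving out 1 library gave 3 to 5 IL-6 family genes lower, and 5 came without shControl replicate 1. It gave log2 fold changes from -0.0172 to 0.24 for CLCF1, from -0.000904 to 0.32 for IL6ST and from -0.22 to 0.0212 for LIFR, so the sign of these 3 genes is not settled. LIF and SOCS3 passed the adjusted p of 0.05 with library weights by group (0.0412 and 0.0258).

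Of the other ligands and receptors, 1 was called (EBI3) with a pseudocount of 0.5, without a filter, after rescaling, with edgeR, with library weights and with the replicate block, 0 were called when 3 libraries had to reach 50, which leaves EBI3 and CTF1 untested, and 1 to 2 when 1 library was left out. Of the signal transduction genes, 0 were called with a pseudocount of 5, after rescaling, with edgeR, with DESeq2, with library weights and with the replicate block, 0 to 2 when 1 library was left out, and 4 with no limit on the fold change. The cause of these moves was not tested. The replicate block left 3 IL-6 family genes lower. The counts of STAT3 targets (7 to 10) and of IL6 regulators (4 to 6) moved by less than 1.5 times. The differences in the 3 receptor ratios kept their sign without any 1 library, an alternative added after the data had been seen. With 3 libraries a group, the changes in LIF and SOCS3 could not be settled at this spread between controls. Their 95% intervals ran from -0.84 to -0.06 and from -0.90 to -0.12 on the log2 scale.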
